A study of Homo sapiens with 9 samples.

Results

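The 43 collagen genes on the array were followed in Rh30 cells grown in 3 ways. They were chosen by name: every probe set whose only array-annotation symbol has the form COL, number, A, number was taken, which gave 112 probe sets of 54613 and 43 genes of 19775. The brightest probe set of a gene, over all arrays, stood for the gene in counts, and the other probe sets of the 35 genes with several are given where a result rests on them. COL17A1, a transmembrane collagen, was not among the genes named in this way.

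Collagens are secreted or membrane proteins in which 3 alpha chains wind into a helix, and each COL gene encodes 1 such chain. Fibrillar collagens build the fibrils of skin, bone, tendon and cartilage, type IV collagen forms the sheet-like network of basement membranes, and type VI forms beaded filaments around cells, skeletal muscle fibres among them. The FACIT collagens bind to the surface of fibrils, and the multiplexins COL15A1 and COL18A1 sit in or next to basement membranes and carry heparan or chondroitin sulphate. In tumours the collagen around the cells can be made both by the tumour cells and by host fibroblasts.

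Rh30 is a human cell line of fusion-positive rhabdomyosarcoma, a muscle-lineage sarcoma, and all 9 samples carry the PAX3-FOXO1 fusion. Each group had 3 biological replicates: adherent cells grown as a monolayer in medium with serum, spheres grown for 48 h in Neurobasal medium with 50 µg/ml insulin, 40 ng/ml EGF, 80 ng/ml bFGF and 1X B27, and xenografts in SCID/beige mice, which lack B and T cells. The methods of the study describe xenografts of adherent-grown cells in the calf muscle, whereas the protocol text attached to the samples describes implants under the skin of the flank, and which applies to these arrays is not settled here. All results therefore concern 1 cell line, the age and number of the mice are not given, and the probes are human, so that mouse RNA is read only where its sequence is close enough to bind. Total RNA was hybridised to Affymetrix U133 Plus 2.0 arrays and the authors deposited log2 signals, a scale on which 1 unit is a doubling. The replicates of a group correlated between 0.990 and 0.998 over all probe sets, and 3 arrays a group limit the precision.

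Markers of the muscle tumour were bright on every array. MYOD1, the myogenic transcription factor that marks rhabdomyosarcoma, had a log2 signal between 10.65 and 11.17 on the 9 arrays. Over 8 rhabdomyosarcoma markers the mean log2 signal ranged from 10.23 to 10.32 in adherent cells, from 9.76 to 9.87 in spheres and from 10.14 to 10.18 in xenografts. Against adherent cells none of the 8 rose and 4 fell in spheres, 50% beside 29.8% of all genes, with log2 differences from -1.17 to -0.05. In xenografts 2 rose and 3 fell, 62.5% beside 26.9%. Of the 2 rises, that of FGFR4 by 0.34 (adjusted p = 0.0416) was lost without any 1 array other than xenograft replicate 2. It was also lost under median centring (0.0885). The other rise, of MYCN by 0.48, was lost without adherent replicate 3 (0.0544). In spheres the fall of DES, by 0.38, was lost without adherent replicate 3 (0.0872) or sphere replicate 1 (0.0673). In a bulk sample, fewer cells of a type and less RNA per cell cannot be told apart.

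Across the collagen genes, the 2 culture conditions and the xenografts differed in both directions. By limma with Benjamini-Hochberg adjustment over all probe sets at 0.05, 5 of 43 collagen genes rose and 6 fell in spheres against adherent cells, which is 25.6% of them beside 29.8% of all genes (13.5% higher and 16.3% lower). In xenografts against adherent cells 8 rose and 13 fell, 48.8% beside 26.9% of all genes (12.6% higher and 14.3% lower). Between xenografts and spheres 13 were higher and 12 lower in xenografts, 58.1% beside 44% of all genes (25.7% higher and 18.3% lower). Both comparisons with adherent cells use the same 3 adherent arrays, so the counts are not independent of each other.

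Differences of at least 2-fold were few, and most of them were falls in the xenografts. In spheres 1 collagen gene rose and 2 fell by that much, 6.98% beside 5.81% of all genes (3.06% higher and 2.75% lower). In xenografts against adherent cells 1 rose and 7 fell, 18.6% beside 3.28% of all genes (0.799% higher and 2.48% lower). Between xenografts and spheres 2 were higher and 6 lower in xenografts, 18.6% beside 7.58% of all genes (2.7% higher and 4.87% lower). The median log2 difference over the 43 genes was -0.06 in spheres and 0.16 in xenografts, beside -0.04 and 0.08 for all genes, so the medians stayed near those of all genes while single genes moved by several log2 units. The arrays of the compared groups did not overlap for 21 of 43 genes in spheres against adherent cells, 28 in xenografts against adherent cells and 26 in xenografts against spheres, beside 47.7%, 43.9% and 52.8% of all genes.

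The calls fell mostly on the brighter genes. Of the 43, 25 had a mean above that of the median probe set on the array, a log2 signal of 4.84, and 18 lay at or below it. Among the 25 brighter genes 5 rose and 12 fell in xenografts against adherent cells, 68% beside 35.9% of genes as bright. Their median log2 difference was -0.47, with no median of equally bright genes to set beside it. The lower and upper quartiles of all probe sets were 3.362 to 3.392 and 6.879 to 6.894 in xenograft arrays. In adherent arrays they were 3.255 to 3.304 and 7.016 to 7.057. The part of this narrower range in the falls of bright genes was not tested. The same 25 held all 11 calls in spheres, 44% beside 42.4%, and 16 of the calls between xenografts and spheres, 64% beside 54%. Among the 18 dim genes 3 rose and 1 fell, 22.2% beside 10.9% of genes as dim, in spheres against adherent cells none passed, beside 7.22%, and between xenografts and spheres 9 passed, 50% beside 26.1%. A log2 difference of a dim probe set is damped by its background, so small differences there say little about size.

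**Figure D1:**
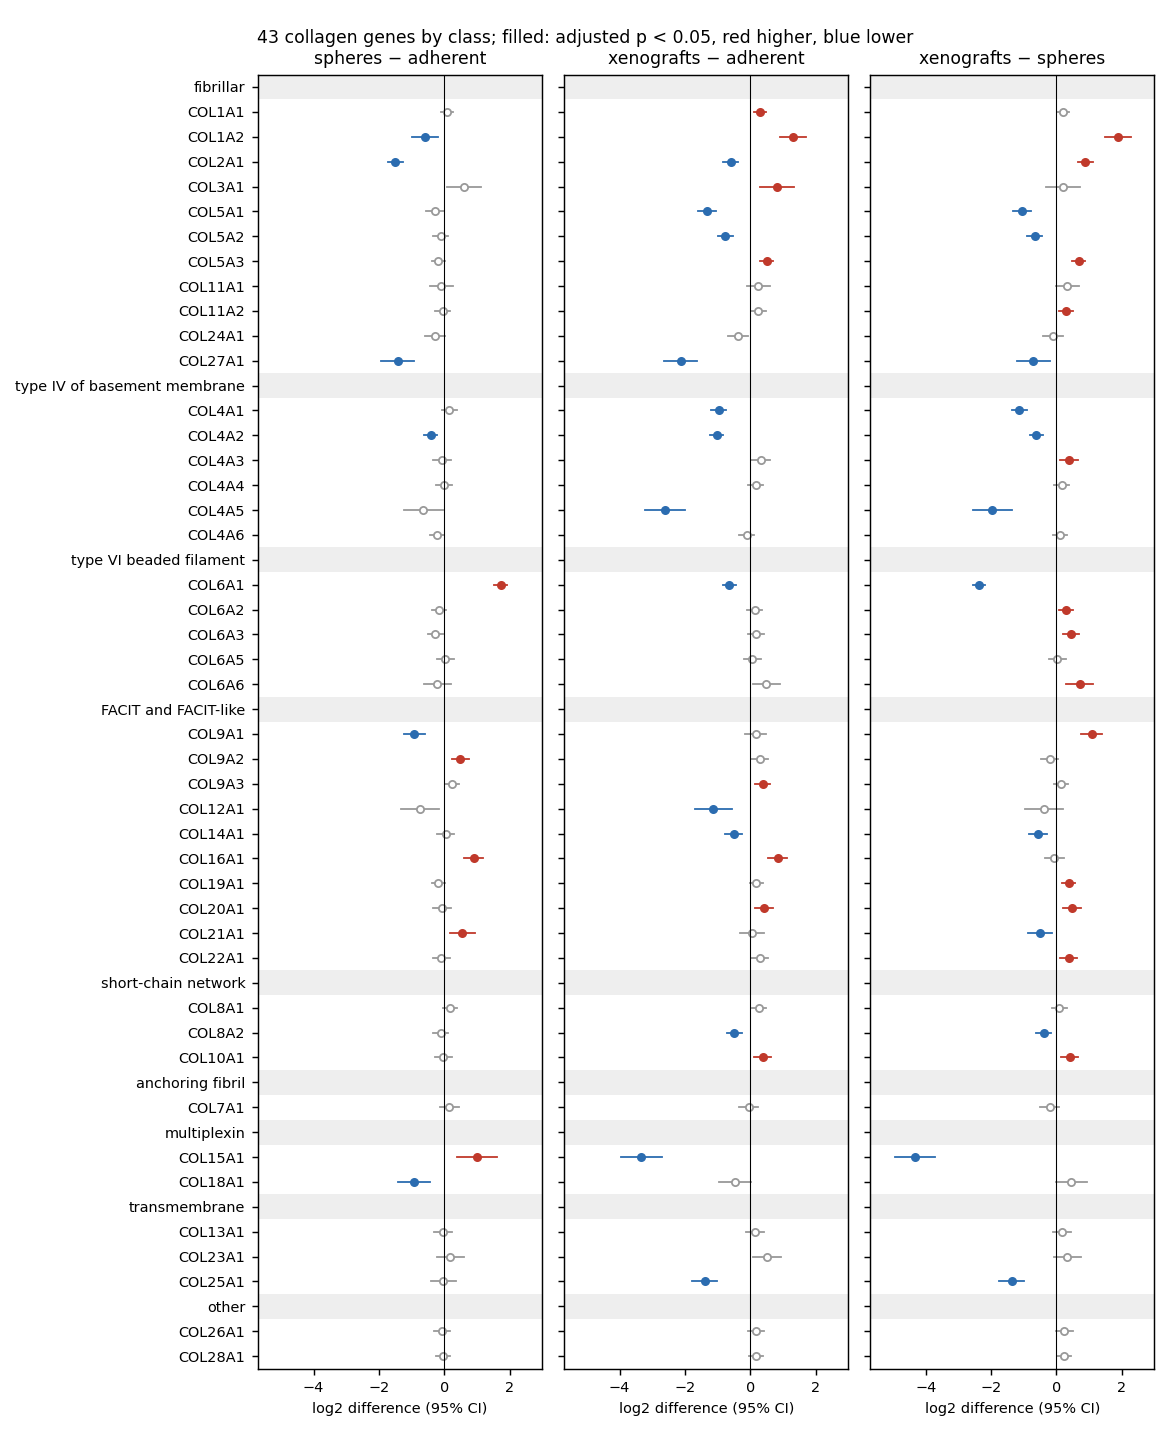
Log2 difference of each of the 43 collagen genes (brightest probe set) in the 3 comparisons, with the 95% interval of each difference and colour marking genes past the limma threshold. Most genes lie within 1 log2 unit of 0, whereas COL15A1 and COL4A5 lie furthest below 0 in xenografts against adherent cells and COL6A1 lies furthest above 0 in spheres.

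Of the 6 type IV genes of the basement membrane, 3 fell and none rose in xenografts against adherent cells, 50% beside 26.9% of all genes. COL4A1 and COL4A2 encode the 2 chains that form the common type IV network found in nearly all basement membranes, and in xenografts each was close to 2-fold lower than in adherent cells. The 6 type IV genes lie in 3 head-to-head pairs, each pair sharing the stretch of DNA between its start sites and being read outwards in opposite directions. Because the members of a pair share this stretch while their signals did not always move together, the RefSeq sequence of assembly GRCh38.p14 is shown for each pair, written 5′ to 3′ on the plus strand, with CCAAT (or its complement ATTGG) and GGGCGG (or CCGCCC) in capitals. For COL4A1 and COL4A2 the whole 126 bases between the starts are given, at chr13:110307158-110307283. For the other pairs, whose starts lie 418 and 379 bases apart, the 250 bases before the second gene are given, at chr2:227164374-227164623 and chrX:108439588-108439837.
COL4A1/COL4A2: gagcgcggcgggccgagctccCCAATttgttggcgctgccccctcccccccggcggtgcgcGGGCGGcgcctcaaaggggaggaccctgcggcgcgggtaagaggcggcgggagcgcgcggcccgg
COL4A4/COL4A3: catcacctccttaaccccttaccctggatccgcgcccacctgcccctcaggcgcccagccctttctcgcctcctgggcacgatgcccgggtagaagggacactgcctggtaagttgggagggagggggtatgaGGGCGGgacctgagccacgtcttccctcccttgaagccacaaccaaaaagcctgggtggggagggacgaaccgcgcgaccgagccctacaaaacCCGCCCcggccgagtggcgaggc
COL4A6/COL4A5: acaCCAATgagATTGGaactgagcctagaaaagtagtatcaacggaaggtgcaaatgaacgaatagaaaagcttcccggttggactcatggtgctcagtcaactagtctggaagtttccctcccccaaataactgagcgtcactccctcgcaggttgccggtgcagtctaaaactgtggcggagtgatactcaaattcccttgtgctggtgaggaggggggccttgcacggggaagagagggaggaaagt
The 3 stretches differ in base composition, with 80.2% G and C for COL4A1/COL4A2, 66.4% for COL4A4/COL4A3 and 51.2% for COL4A6/COL4A5. On either strand, CCAAT stood in the 250 bases before the start of 33% of all genes in the RefSeq table and of 8 of the 31 collagen genes it holds, GGGCGG in 42.3% of all genes and in 18 collagen genes, and TATAAA in 11.1% and in 4. Such a match is a description of the letters and not of a bound factor.

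On the log2 scale COL4A1 read 11.29, 11.44 and 11.25 in the 3 adherent replicates, 11.40, 11.58 and 11.48 in spheres and 10.38, 10.49 and 10.20 in xenografts. All 3 xenograft arrays lay below the other 6, and the adherent and sphere arrays overlapped. The fall in xenografts was -0.97 ± 0.10 (SE), 0.51 of the adherent signal, at an adjusted p of 7.21e-05, while the difference of spheres from adherent cells was 0.16 with a 95% interval from -0.07 to 0.39.

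COL4A2 read 12.20, 12.30 and 12.17 in adherent cells, 11.78, 11.84 and 11.80 in spheres and 11.09, 11.25 and 11.23 in xenografts. Here the 3 groups were fully separated, with spheres in between. Against adherent cells, COL4A2 fell by 0.42 in spheres (adjusted p = 0.00403). It fell by 1.03 in xenografts (adjusted p = 1.48e-05), so both genes of this pair fell in xenografts, while at the brightest probe sets COL4A2 alone passed in spheres. The second probe set of COL4A1 rose by 0.38 in spheres (adjusted p = 0.0128), the second of COL4A2 fell by 0.55 (adjusted p = 0.00123), and the second probe sets of both fell in xenografts, by 0.76 and 0.84.

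COL4A5, a chain of the basement membranes of kidney and smooth muscle, had 1 of the largest falls of any collagen. Its signals were 6.60, 6.98 and 6.66 in adherent cells, 6.17, 5.91 and 6.23 in spheres and 3.40, 4.83 and 4.17 in xenografts. Every xenograft array was below all adherent and sphere arrays, and the 3 differed among themselves by more than 1 log2 unit. The difference of xenografts from adherent cells was -2.61 ± 0.27 (adjusted p = 5.87e-05), and that of spheres was -0.64 (adjusted p = 0.116), which did not pass although the arrays did not overlap. Spheres and adherent cells are judged by the spread of all 9 arrays, and without xenograft replicate 1 or 2 the same sphere difference passed (adjusted p = 0.0155 and 0.027). Without xenograft replicate 1, the lowest array, the fall was still -2.24. The second probe set of COL4A5, at 2.97 to 3.47 on all arrays, was 0.29 higher in xenografts (adjusted p = 0.0484), so the fall rests on 1 bright probe set.

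The remaining type IV chains were dim. COL4A6, the head-to-head neighbour of COL4A5, read 3.51, 3.57 and 3.72 in adherent cells, 3.40, 3.49 and 3.24 in spheres and 3.49, 3.57 and 3.40 in xenografts, with no call in any comparison. COL4A3, a chain of the glomerular basement membrane, read 3.26, 3.13 and 3.13 in adherent cells, 3.08, 2.83 and 3.39 in spheres and 3.50, 3.44 and 3.53 in xenografts. It was 0.38 higher in xenografts than in spheres (adjusted p = 0.033), and that call was lost without sphere replicate 1 or 2 or without any 1 xenograft replicate, at adjusted p-values from 0.0511 to 0.131, and under quantile normalization (0.107). Of its 6 other probe sets, all dimmer, 1 rose by 0.50 in xenografts against adherent cells (adjusted p = 0.028). COL4A4 read 3.61, 3.40 and 3.25 in adherent cells, 3.55, 3.38 and 3.33 in spheres and 3.56, 3.61 and 3.58 in xenografts, again with no call.

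Other basement membrane genes also fell more often than they rose in xenografts. Of 14 laminin and other basement membrane genes measured, 1 rose and 8 fell in xenografts against adherent cells, 64.3% beside 26.9% of all genes, with a median log2 difference of -0.41 beside 0.08 for all genes. Quantile normalization gave 2 and 6, and median centring 0 and 8. The fall of SPARC, by 0.39, was lost without adherent replicate 2 or 3 or xenograft replicate 1 or 2 (adjusted p from 0.0531 to 0.104). That of LAMB2, by 0.43, was lost without adherent replicate 1 or 3 or xenograft replicate 1 (0.0582 to 0.0949). NID1, which links laminin to type IV collagen, fell by 1.56, from 8.51, 8.86 and 8.61 to 6.26, 7.66 and 7.38. The laminin chain LAMA4, an endothelial and muscle laminin, fell by 1.03, LAMC1, the gamma chain of most laminins, by 0.89, and LAMA5 by 0.85. The 1 rise, of the laminin chain LAMB3 by 0.39, was lost without any 1 adherent replicate, sphere replicate 2 or 3 or xenograft replicate 2 or 3 (adjusted p from 0.0525 to 0.128) and under median centring (0.0731). In spheres the same list was split, with 3 genes higher and 2 lower, 35.7% beside 29.8% of all genes. The 3 became 1 without adherent replicate 1, and the 2 became 0 without adherent replicate 2 and 1 without adherent replicate 3. Without sphere replicate 2 the sphere rises of AGRN (adjusted p = 0.0548) and LAMB1 (0.0551) and the sphere fall of LAMA4 (0.108) were lost. LAMA2, the laminin chain of adult muscle, rose by 0.57 in spheres and fell by 0.51 in xenografts, though the latter call was lost without adherent replicate 2 (adjusted p = 0.0597) and under quantile normalization (adjusted p = 0.0607).

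The multiplexins COL15A1 and COL18A1 belong to the same tissue zone. COL15A1 had the largest difference of all collagens, and it moved in opposite directions in the 2 conditions. It read 6.70, 7.03 and 6.94 in adherent cells, 7.56, 8.0 and 8.10 in spheres and 2.74, 3.88 and 4.05 in xenografts. The groups were separated from each other, and the xenograft arrays lay among the dimmer probe sets of the array. COL15A1 fell by 3.33 in xenografts against adherent cells (SE 0.28, adjusted p = 1.33e-05), which is 0.0992 of the adherent signal, and by 2.92 without xenograft replicate 1. In spheres it rose by 1.00 ± 0.28 (adjusted p = 0.0201), a call that was lost without adherent replicate 1 (0.0776) or 3 (0.0536) and without sphere replicate 2 (0.0707) or 3 (0.0811). COL15A1 was represented by 1 probe set.

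COL18A1, whose C-terminal fragment is endostatin, moved in the other direction in spheres. Its signals were 7.20, 7.26 and 7.30 in adherent cells, 6.16, 6.44 and 6.37 in spheres and 7.40, 6.27 and 6.67 in xenografts. The sphere arrays were all lower than the adherent ones, whereas the xenograft arrays spanned both. The fall in spheres was -0.93 ± 0.22 (adjusted p = 0.00759), and the difference in xenografts was -0.47 (95% interval -0.95 to 0.01, adjusted p = 0.141). Without xenograft replicate 1, the highest of the 3, the latter was -0.79 and passed (adjusted p = 0.00191). The second probe set of COL18A1 did not pass in spheres.

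**Figure D2:**
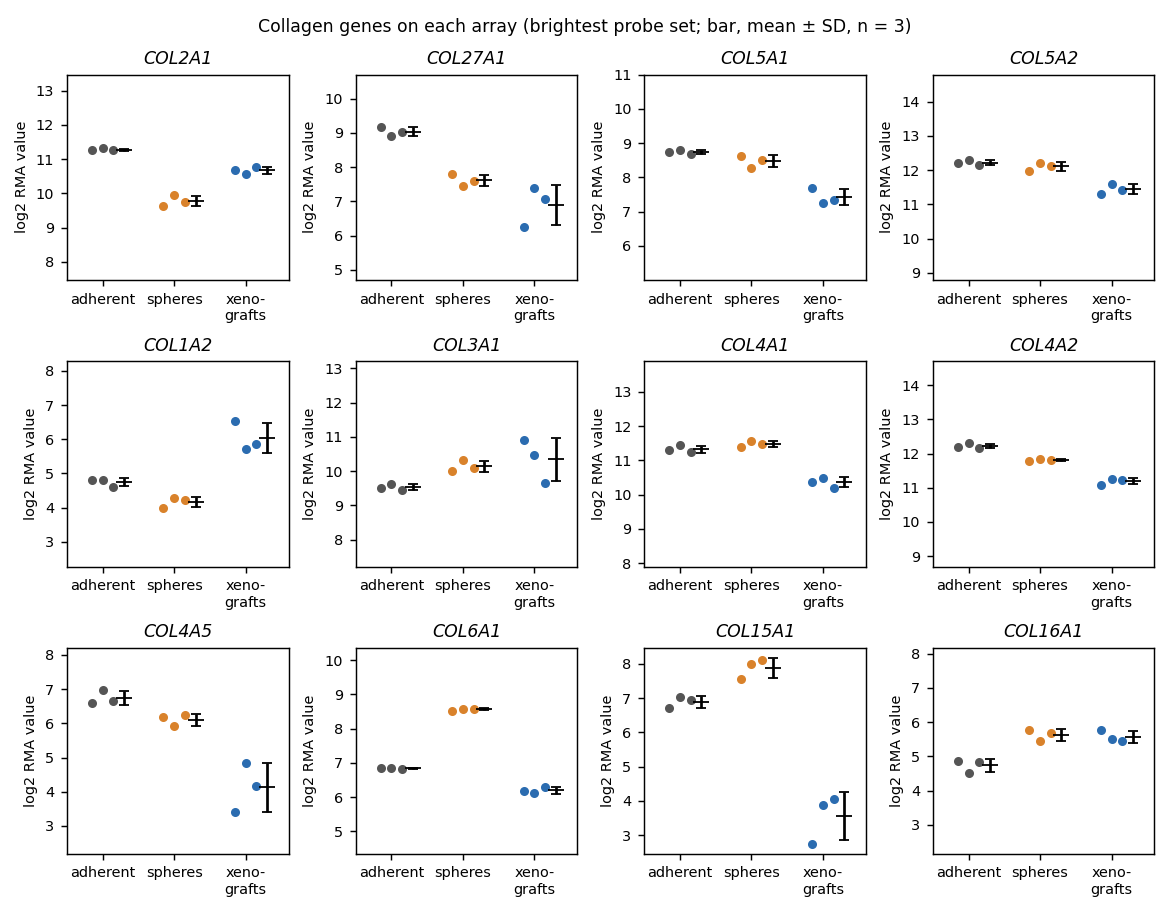
Log2 signal of 12 collagen genes on each of the 9 arrays (points, 3 arrays for each of adherent cells, spheres and xenografts, bars for the mean and SD), every panel spanning the same 6 log2 units. COL15A1 and COL4A5 drop in all 3 xenograft arrays, COL6A1 is raised in the 3 sphere arrays, and xenograft replicate 1 is the highest array for COL1A2 and COL3A1.

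The fibrillar collagens showed a split between chains that fell and chains that rose in xenografts. Of 11 fibrillar genes, none rose and 3 fell in spheres against adherent cells, 27.3% beside 29.8% of all genes. In xenografts 4 rose and 4 fell, 72.7% beside 26.9%. COL2A1 and COL27A1 fell in both conditions, and COL5A1 and COL5A2 fell in xenografts. COL1A1, COL1A2, COL3A1 and COL5A3 rose there at their brightest probe sets, though the direction of COL1A1 depends on the probe set. The 4 rises became 2 without any 1 adherent replicate or without xenograft replicate 2, and 3 without xenograft replicate 1, while the 4 falls stayed at 4 in each of these fits. In spheres 1 fibrillar gene, COL3A1, passed as a rise without xenograft replicate 1 or 3.

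COL2A1, the main collagen of cartilage, fell in both conditions, and further in spheres than in xenografts. Its signals were 11.26, 11.31 and 11.26 in adherent cells, 9.64, 9.95 and 9.76 in spheres and 10.67, 10.57 and 10.77 in xenografts. The 3 groups did not overlap, and the xenografts stood between the others. COL2A1 fell by 1.50 ± 0.10 in spheres (adjusted p = 1.23e-06), to 0.355 of the adherent signal, and by 0.61 in xenografts (adjusted p = 0.00136). Its second probe set gave -1.67 and -0.63. SOX9, the transcription factor of chondrocytes, rose by 0.72 in spheres (from 10.52, 10.66 and 10.56 in adherent cells to 11.26, 11.31 and 11.33). It was the only 1 of 7 chondrocyte markers to pass there, 14.3% beside 29.8% of all genes. The mean log2 signal of these 7 markers ranged from 4.99 to 5.07 in adherent cells, 5.06 to 5.19 in spheres and 4.93 to 5.26 in xenografts.

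COL27A1, a fibrillar collagen of developing cartilage, stepped down from adherent cells through spheres to xenografts. It read 9.16, 8.91 and 9.04, then 7.79, 7.44 and 7.60, then 6.25, 7.39 and 7.07, and no 2 groups overlapped. It fell by 1.43 ± 0.23 in spheres (adjusted p = 0.000586) and by 2.14 ± 0.23 in xenografts (adjusted p = 7.08e-05), and without xenograft replicate 1 the latter difference was -1.81. The step from spheres to xenografts was -0.71 (adjusted p = 0.0293) and did not hold without sphere replicate 1 (0.0858) or 3 (0.0724), nor under quantile normalization (0.0829). Of its 5 probe sets, 3 fell in both conditions and the 2 dimmer ones did not pass.

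Type V collagen is a minor partner of type I fibrils that limits their width, and its chains parted. COL5A2 was among the brightest collagen signals, at 12.21, 12.29 and 12.15 in adherent cells, 11.97, 12.22 and 12.13 in spheres and 11.31, 11.60 and 11.43 in xenografts. The xenograft arrays lay below all others, and the sphere and adherent arrays overlapped. COL5A2 fell by 0.77 ± 0.11 in xenografts (adjusted p = 0.000402), and its second probe set by 1.14.

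COL5A1 read 8.74, 8.80 and 8.70 in adherent cells, 8.64, 8.28 and 8.50 in spheres and 7.68, 7.26 and 7.34 in xenografts. It fell by 1.32 ± 0.13 in xenografts, to 0.40 of the adherent signal (adjusted p = 3.5e-05), whereas its other 2 probe sets were at 0.15 and -0.28 without passing. In spheres the brightest probe set differed by -0.28 (adjusted p = 0.15) and another probe set of the gene rose by 0.73 (adjusted p = 0.00422), so the direction of COL5A1 in spheres depends on the probe set. COL5A3, at 5.03, 5.17 and 5.06 in adherent cells, 4.91, 4.89 and 4.92 in spheres and 5.63, 5.44 and 5.68 in xenografts, rose by 0.50 ± 0.09 in xenografts (adjusted p = 0.00272), while its second probe set was at 0.20 and did not pass.

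Type I collagen, the main fibril collagen of connective tissue, is built from COL1A1 and COL1A2. COL1A2 read 4.82, 4.82 and 4.61 in adherent cells, 4.0, 4.28 and 4.22 in spheres and 6.54, 5.73 and 5.87 in xenografts, and the groups did not overlap. In xenografts it rose by 1.30 ± 0.18, 2.46-fold (adjusted p = 0.000404), and by 1.05 without xenograft replicate 1. In spheres it fell by 0.58 (adjusted p = 0.0337), a call that was lost when any 1 of the 6 adherent and sphere arrays was left out, at adjusted p-values from 0.0512 to 0.111. Neither of its other 2 probe sets passed in these 2 comparisons.

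The probe sets of COL1A1 contradicted each other. The brightest read 7.38, 7.36 and 7.32 in adherent cells, 7.47, 7.48 and 7.36 in spheres and 7.61, 7.70 and 7.64 in xenografts, a rise of 0.30 in xenografts (adjusted p = 0.0261) that was lost without any 1 adherent replicate or xenograft replicate 2 (adjusted p from 0.0603 to 0.0901) and under median centring (0.0558). A second probe set read 5.25, 5.61 and 4.96 in adherent cells, 5.95, 6.42 and 6.34 in spheres and 3.50, 2.95 and 3.40 in xenografts. Its sphere arrays were 0.96 above adherent cells (adjusted p = 0.0024), a rise, and in xenografts it fell by 1.99 (adjusted p = 3.18e-05). All 5 carry a suffix that marks probes shared by several transcripts or other sequences, and the mean over all 5 probe sets was 0.36 lower in xenografts (adjusted p = 0.0122). The direction of COL1A1 is therefore uncertain.

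COL3A1, which forms fibrils with type I collagen in extensible tissues, read 9.50, 9.62 and 9.46 in adherent cells, 10.00, 10.32 and 10.10 in spheres and 10.90, 10.47 and 9.66 in xenografts. The adherent arrays were the 3 lowest, and xenograft replicate 3 was only slightly above them. COL3A1 rose by 0.82 ± 0.24 in xenografts (adjusted p = 0.0277), but the call was lost without any 1 adherent replicate (0.0635 to 0.0877) and without xenograft replicate 1 (0.0688) or 2 (0.0777). In spheres it was 0.62 higher and did not pass (adjusted p = 0.0804), but passed without xenograft replicate 1 (0.0227) or 3 (0.00404), whose spread enters the shared error. COL5A2, which lies next to COL3A1 in the genome, fell in xenografts. The remaining fibrillar genes, COL11A1, COL11A2 and COL24A1, did not pass against adherent cells, with differences between -0.38 and 0.25.

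Of 12 fibroblast markers other than collagens, 2 rose (LUM and DCN) and 1 fell (PDGFRB, by 0.81) in xenografts against adherent cells, 25% beside 26.9% of all genes. LUM, the fibril-binding proteoglycan lumican, read 4.22, 4.53 and 4.14 in adherent cells, 3.50, 4.51 and 4.31 in spheres and 8.31, 6.47 and 6.56 in xenografts, a rise of 2.82. Xenograft replicate 1 had the highest LUM, COL1A2 and COL3A1 signals of all 9 arrays, and the lowest COL15A1, COL4A5, COL27A1 and COL12A1 signals. The mean log2 signal of the 12 markers ranged from 4.80 to 4.85 in adherent cells, 4.65 to 4.67 in spheres and 5.07 to 5.50 in xenografts. Among adult muscle markers 4 of 10 rose and 1 fell (50% beside the same 26.9%), with ACTA1 up by 3.22 and MYH4 by 2.40. The log2 differences of these 10 ran from -0.99 to 3.22. The rise of MYH1, by 0.45 (adjusted p = 0.0472), was lost under quantile normalization and median centring. It was also lost without adherent replicate 2 or 3, any 1 sphere replicate, or xenograft replicate 2 or 3 (0.0584 to 0.1625). Among endothelial markers 2 of 9 rose (22.2%), and among macrophage and leukocyte markers 1 of 8 rose and 1 fell (25%), both near the share of all genes. The log2 differences of the 8 macrophage and leukocyte markers ran from -3.55 to 0.66. PTPRC, the pan-leukocyte marker, stayed between 2.44 and 2.64 on all arrays, and no marker was at 0, which this signal scale does not reach. The part of host RNA in the collagen differences was not tested.

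Of the 5 type VI genes, COL6A1 was the only 1 to pass against adherent cells, in both comparisons. That is 20% in each, beside 29.8% and 26.9% of all genes. COL6A1 read 6.84, 6.84 and 6.83 in adherent cells, 8.53, 8.57 and 8.59 in spheres and 6.16, 6.12 and 6.31 in xenografts. The replicates were tight and the 3 groups far apart. COL6A1 rose by 1.72 ± 0.09 in spheres, 3.30-fold (adjusted p = 1.59e-07), the largest rise of any collagen there, and fell by 0.64 in xenografts (adjusted p = 0.000343). The gene has 8 probe sets, and only 1 other rose in spheres, by 0.61 (adjusted p = 0.00142). Another fell by 0.36 (adjusted p = 0.0225), the remaining 5 did not pass, and none of the other 7 passed in xenografts. The means of these 7 over the 9 arrays ran from 2.68 to 5.02, beside 7.20 for the brightest.

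COL6A2 and COL6A3, which assemble with COL6A1 into 1 molecule, did not follow its brightest probe set. Their means of 4.78 and 3.44 lay below that of the median probe set, where background damps a difference, beside 7.20 for COL6A1. COL6A2 read 4.88, 4.82 and 4.67 in adherent cells, 4.79, 4.54 and 4.54 in spheres and 4.90, 4.90 and 4.96 in xenografts. COL6A3 read 3.55, 3.44 and 3.42, then 3.28, 3.21 and 3.13, then 3.44, 3.84 and 3.66. Neither passed against adherent cells, and in spheres their differences were -0.16 (95% interval -0.38 to 0.06) and -0.27 (-0.51 to -0.03), the latter passing without xenograft replicate 1 (adjusted p = 0.0478). COL6A1 and COL6A2 are neighbours in the genome.

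COL6A6 read 3.61, 3.55 and 3.60 in adherent cells, 3.61, 3.09 and 3.41 in spheres and 3.61, 4.42 and 4.21 in xenografts, and was 0.71 higher in xenografts than in spheres (adjusted p = 0.011), a call lost without sphere replicate 2 (0.0511). Against adherent cells it was 0.49 higher in xenografts (adjusted p = 0.0789), and 0.73 higher without xenograft replicate 1, which passed (0.00454). COL6A5 read 2.28, 2.41 and 2.46 in adherent cells, 2.65, 2.20 and 2.41 in spheres and 2.41, 2.40 and 2.54 in xenografts, among the dimmest collagen signals, and did not pass in any comparison, while its second, dimmer probe set was 0.38 lower in spheres (adjusted p = 0.0389). COL6A2 and COL6A3 were 0.30 and 0.44 higher in xenografts than in spheres, the former lost without adherent replicate 2, sphere replicate 2 or 3, or xenograft replicate 2 or 3 (adjusted p from 0.0509 to 0.128).

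**Figure D3:**
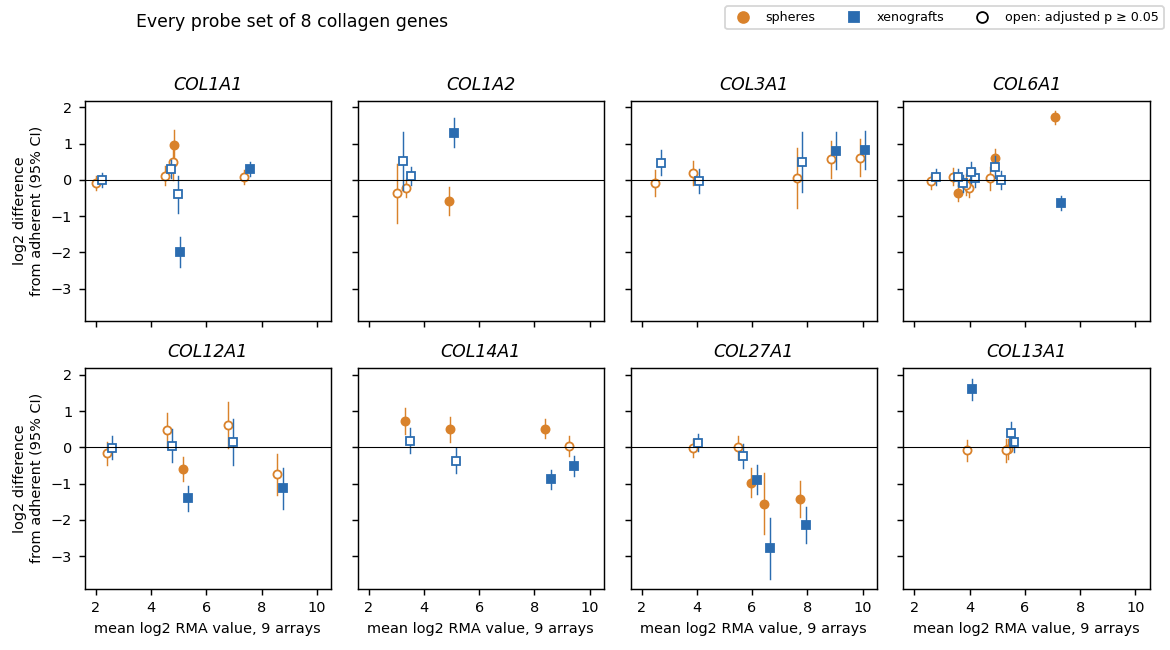
Every probe set of 8 collagen genes, with its log2 difference against its mean log2 signal over the 9 arrays, for spheres and xenografts against adherent cells. The bars are 95% intervals and open symbols did not pass the threshold. The probe sets of COL1A1 and COL6A1 spread to both sides of 0, whereas the 3 brightest of COL27A1 all lie below it.

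Among the 10 FACIT and related collagens, 3 rose and 1 fell in spheres, and 3 rose and 2 fell in xenografts against adherent cells. These are 40% and 50% beside 29.8% and 26.9% of all genes. The 3 rises in xenografts became 1 without adherent replicate 2 or 3 or xenograft replicate 2, the 2 falls there became 1 without adherent replicate 2, and the 1 fall in spheres became 2 without xenograft replicate 1 or 2. COL9A1, which coats type II fibrils in cartilage, read 5.86, 5.76 and 5.98 in adherent cells, 4.80, 5.11 and 4.94 in spheres and 6.38, 5.92 and 5.79 in xenografts. Only the spheres were apart, and the fall there was -0.91 ± 0.15 (adjusted p = 0.000611). The second, dimmer probe set of COL9A1 was at -0.23 in spheres and did not pass (adjusted p = 0.255). COL9A2, its partner chain, rose by 0.49 in spheres (adjusted p = 0.00928) and did not pass in xenografts, whereas its second probe set was at 0.02 in spheres and rose by 0.36 in xenografts (adjusted p = 0.0115). The remaining chain, COL9A3, rose by 0.37 in xenografts (adjusted p = 0.0181), a call lost without adherent replicate 2 or 3 (0.0745 and 0.0833) or xenograft replicate 2 (0.0516).

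COL16A1, a FACIT-like collagen of several connective tissues, was higher in both conditions. It rose by 0.90 in spheres (adjusted p = 0.000333) and by 0.84 in xenografts (adjusted p = 0.000959), from 4.51 to 4.86 in adherent cells to at least 5.44 on all other arrays. COL12A1, which binds type I fibrils, fell by 1.13 in xenografts (adjusted p = 0.00957), by 0.75 without xenograft replicate 1, and 1 of its other 4 probe sets fell too, by 1.41. In spheres COL12A1 was 0.75 lower and did not pass (adjusted p = 0.0586), but passed without xenograft replicate 1 (0.00174) or 2 (0.0215). Its other probe sets went both ways there, 1 falling by 0.60 (adjusted p = 0.0126) and 2 at 0.62 and 0.48 without passing, so the direction of COL12A1 in spheres depends on the probe set.

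COL14A1, another fibril-associated collagen, fell by 0.51 in xenografts (adjusted p = 0.012), a call lost without adherent replicate 2 (0.0597), and a second probe set fell by 0.88. In spheres its brightest probe set differed by 0.04 and did not pass, while the other 3 rose by 0.50 to 0.73. COL21A1 rose by 0.55 in spheres (adjusted p = 0.0355), with arrays that overlapped and a call lost without any 1 adherent replicate or sphere replicate 2 or 3 (0.0649 to 0.152) or under median centring (0.0602). COL20A1 rose by 0.42 in xenografts (adjusted p = 0.0309), lost without any 1 adherent replicate or xenograft replicate 2 or 3 (0.0788 to 0.0931) and under quantile normalization (0.0571). Its second, dimmer probe set was at 0.07 there and did not pass (adjusted p = 0.665).

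None of the 3 transmembrane and 3 short-chain collagens passed in spheres, beside 29.8% of all genes. In xenografts 1 transmembrane gene fell (33.3%) and 1 short-chain gene rose and 1 fell (66.7%), beside 26.9% of all genes. COL25A1, a membrane collagen of neurons and developing muscle, read 5.76, 6.10 and 6.10 in adherent cells, 5.70, 6.13 and 6.05 in spheres and 4.76, 4.80 and 4.20 in xenografts. The xenograft arrays were below all others, with a fall of 1.40 ± 0.17 (adjusted p = 0.000188), to 0.379 of the adherent signal, and spheres were level with adherent cells (-0.03, 95% interval -0.41 to 0.35). The other probe sets of COL25A1, both dimmer, were at -0.41 (adjusted p = 0.0868) and 0.20 (0.346) in xenografts and did not pass. COL13A1, which sits at the neuromuscular junction, did not pass at its brightest probe set, but a dimmer one rose by 1.60 in xenografts, from 3.43, 3.60 and 3.42 to 5.29, 5.02 and 4.93 (adjusted p = 1.15e-05). COL23A1 was 0.51 higher in xenografts and did not pass (adjusted p = 0.0729), but passed without xenograft replicate 2, at 0.73 (0.0109).

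Of the short-chain network collagens, COL8A2 fell by 0.49 in xenografts (adjusted p = 0.0057), with its second probe set at -0.05. COL10A1, a collagen of hypertrophic cartilage, rose by 0.38 (adjusted p = 0.0354), with its second, dimmer probe set at 0.14 without passing. The latter call was lost without adherent replicate 2 or 3, sphere replicate 3 or xenograft replicate 1 or 3 (0.05 to 0.144) and under both other scalings. COL7A1, the anchoring fibril collagen of skin, COL26A1 and COL28A1 did not pass at their brightest probe sets. The second probe set of COL7A1, nearly as bright, was 0.32 lower in spheres (adjusted p = 0.0409) and 0.35 higher in xenografts (adjusted p = 0.0306), with 0.68 between xenografts and spheres (adjusted p = 0.000367). The second of COL26A1 was 0.42 higher in xenografts than in spheres (adjusted p = 0.0286).

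Xenografts were also set directly against spheres. COL15A1 was 4.33 lower in xenografts (SE 0.28, adjusted p = 6.63e-07), COL6A1 2.36 lower (adjusted p = 1.33e-08), COL4A5 1.97 lower (adjusted p = 0.000164), COL25A1 1.37 lower and COL4A1 1.13 lower. The second, dim probe set of COL4A5 was 0.41 higher (adjusted p = 0.00581). Of the 8 probe sets of COL6A1, 2 were lower and 6 did not pass, and of the 3 of COL25A1, 1 was lower and 2 did not pass. COL1A2 was 1.88 higher (adjusted p = 1.11e-05), COL9A1 1.08 higher (adjusted p = 0.000145) and COL2A1 0.89 higher (adjusted p = 3.93e-05). Of the 13 genes higher in xenografts than in spheres, 8 were among the 18 dim genes, each by less than 1 log2 unit, and without sphere replicate 2 the 13 became 7.

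The probe sets of a collagen gene often gave different calls. How often this happens among all genes with several probe sets was not counted, so it is not shown to be a trait of collagen genes. Of the 35 collagen genes with several probe sets, the brightest passed in 8 genes in spheres against adherent cells, 18 in xenografts against adherent cells and 21 in xenografts against spheres. All probe sets of the gene were called the same way in 2, 4 and 6 of them. In a further 7, 4 and 7 genes only a probe set other than the brightest passed, and calls in both directions within 1 gene were found in 1, 2 and 1 genes.

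The enzymes and chaperones that build collagen in the endoplasmic reticulum rose more often than they fell in spheres. Of 19 measured, 10 rose and 3 fell in spheres against adherent cells (68.4% beside 29.8% of all genes, median 0.35 beside -0.04). The sphere rise of CRTAP was lost without any 1 adherent or sphere replicate (adjusted p from 0.0707 to 0.0993). That of FKBP14 was lost without adherent replicate 1 or 3 or sphere replicate 2 or 3 (0.05002 to 0.0802). The sphere fall of P4HA3 was lost without sphere replicate 2 (0.0615). In xenografts 7 rose and 3 fell (52.6% beside 26.9%), and the 7 became 4 without adherent replicate 2. P4HA1, a catalytic subunit of prolyl 4-hydroxylase, which makes the hydroxyproline that stabilises the triple helix, read 8.31, 8.42 and 8.43 in adherent cells, 9.84, 10.23 and 10.24 in spheres and 9.30, 8.93 and 9.28 in xenografts. It rose by 1.72 in spheres (adjusted p = 3.18e-06) and by 0.79 in xenografts (adjusted p = 0.00152).

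PLOD2, a lysyl hydroxylase that sets the type of cross-link, rose by 0.94 in spheres (adjusted p = 0.00708), and FKBP7, a prolyl isomerase of the endoplasmic reticulum, by 0.94 (adjusted p = 1.17e-05). P3H2, a prolyl 3-hydroxylase that acts on type IV collagen among others, fell by 1.25 in spheres and by 0.99 in xenografts. The arrays of both conditions were all below those of adherent cells for P3H2.

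Enzymes that trim procollagen and cross-link the finished fibrils moved in both directions, with 2 of 13 higher and 3 lower in spheres and the same counts in xenografts, 38.5% in each beside 29.8% and 26.9% of all genes. Without xenograft replicate 1, the genes called higher became 4 in spheres and 5 in xenografts. LOX, the lysyl oxidase that starts the cross-linking of collagen and elastin, read 5.12, 5.38 and 5.04 in adherent cells, 7.59, 8.29 and 8.23 in spheres and 4.55, 3.86 and 3.96 in xenografts. It rose by 2.86 in spheres (7.24-fold, adjusted p = 2.01e-06) and was lower than in adherent cells on every xenograft array (adjusted p = 0.00374). Its relative LOXL1 fell by 1.73 in spheres (adjusted p = 8e-06) and LOXL2, which cross-links type IV collagen, by 1.15 in spheres and 1.85 in xenografts (adjusted p = 1.55e-06). TLL2, a proteinase related to the procollagen C-proteinase, fell by 1.43 in spheres. In xenografts ADAMTS3, a procollagen N-proteinase, fell by 1.02 and its relative ADAMTS2 rose by 0.68.

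Collagen receptors gave 2 higher and 2 lower of 10 in spheres, and 1 higher and 4 lower in xenografts, where median centring gave 0 and 5. These are 40% and 50% of the receptors beside 29.8% and 26.9% of all genes. Of the 5 calls in xenografts, ADGRG1 did not hold without any 1 adherent replicate, sphere replicate 2 or xenograft replicate 2 or 3 (adjusted p from 0.0571 to 0.116), and ITGB1, the beta chain of the collagen-binding integrins, did not hold without adherent replicate 2 (0.0546), which left 2 of the 4 falls. ITGA1, the integrin chain that binds type IV and other collagens, read 6.76, 6.63 and 6.88 in adherent cells, 5.18, 5.18 and 5.30 in spheres and 6.09, 5.65 and 5.94 in xenografts, a fall of 1.54 in spheres (adjusted p = 3.37e-06) and one of 0.87 in the tumours (adjusted p = 0.000424). MRC2, an endocytic receptor for collagen, rose by 1.00 in spheres (adjusted p = 5.96e-05). DDR2, a receptor tyrosine kinase for fibrillar collagen, rose by 0.54 in spheres and fell by 0.51 in xenografts. GP6, the collagen receptor of platelets, fell by 1.02 in spheres and by 0.68 in xenografts, the latter call being lost without any 1 array other than xenograft replicate 1 or 2 (0.054 to 0.14) and under quantile normalization (0.124).

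**Figure D4:**
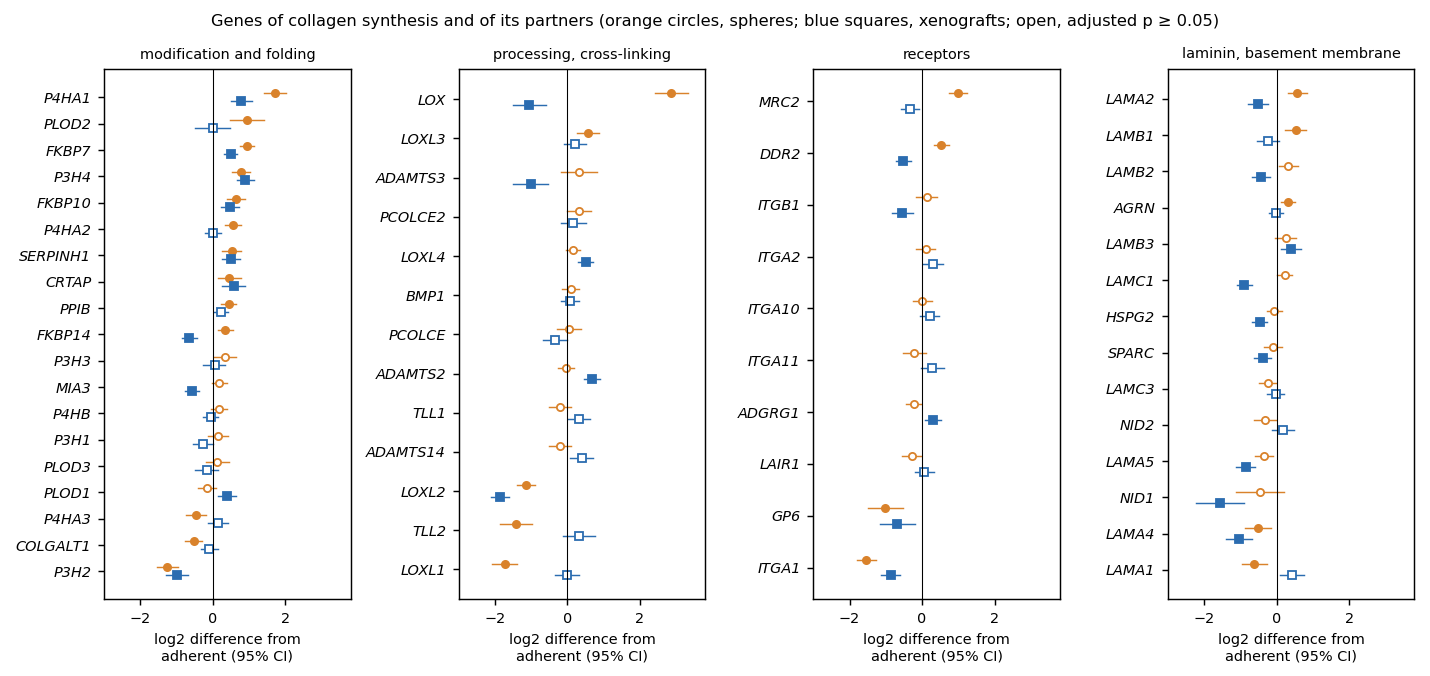
Log2 difference in spheres and in xenografts against adherent cells for the measured genes of 4 lists: collagen modification in the endoplasmic reticulum (19 genes), procollagen processing and cross-linking (13), collagen receptors (10) and basement membrane genes (14). LOX is the furthest above 0 in spheres, and the basement membrane genes lie mostly below 0 in xenografts.

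RNA quality was read from control probe sets, and only ACTB set the sphere arrays apart from the others. The log2 signal of the 3′ probe set of ACTB exceeded that of its 5′ probe set by 2.39 ± 0.30 in the adherent group, 3.20 ± 0.09 in the sphere group and 2.48 ± 0.23 in the xenograft group (SD, n = 3). By a two-sided exact permutation test spheres differed from adherent cells at p = 0.1, the smallest value that 3 against 3 arrays allow, and xenografts at p = 0.8. For GAPDH the difference was 0.54 ± 0.13, 0.62 ± 0.05 and 0.53 ± 0.11. Whether this has a part in the probe set disagreements of COL1A1, COL5A1, COL6A1 and COL14A1 in spheres was not tested.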

How the data were processed

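Total RNA of 9 Rh30 samples, 3 each of adherent cells, spheres and xenografts, was hybridised to Affymetrix U133 Plus 2.0 arrays. The authors background-corrected, normalized and summarised all arrays together by RMA and deposited log2 values, 1 per probe set; the software version is not given in the sources used here. RMA pulls the distributions of the arrays together, so a change shared by most genes would not be seen. The quartiles of the deposited values still differed between xenograft and adherent arrays.

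From these values, 62 control probe sets were left out and 54613 kept. Of these, 41091 had 1 gene symbol in the array annotation, 1801 several and 11721 none, and only the first kind named genes. Collagen genes were taken by symbol, and the brightest probe set over all arrays stood for a gene. All 9 arrays were fitted together with limma 3.58.1 (R 4.3.3, lmFit and eBayes, 6 residual degrees of freedom beside the prior), with adjustment by Benjamini-Hochberg over all 54613 probe sets in each comparison and a threshold of 0.05. Standard errors are limma's, and intervals are at 95%. The fit was tested on simulated data. The members, the gene lists and the tests were chosen with earlier results of these data known.

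Every collagen gene past the threshold could be named. Values on every array were given for types I, III, IV, V and VI. They were also given for the 6 genes with the largest difference in each comparison whose arrays did not overlap. Up to 4 called genes of each other list and 3 of each marker list were named, those with the largest differences. MYOD1, PTPRC, ADGRG1, genes named for a lost call and genes that did not pass were named after their values were seen. Promoter sequences were those of RefSeq, which held 31 of the 43 genes. Alternatives were quantile normalization, median centring, brighter probe sets only, the compared groups alone, a variance trend, array weights, a replicate block, the methods' t-test, a 2-fold minimum, the mean of all probe sets, probe sets without a suffix for shared sequence, and leaving out each array. Replicates are biological by the study's account, but nothing ties numbers across groups.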

Additional observations from a re-analysis of the deposited data

Results flagged for a closer look

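For 5 collagen genes, at their brightest probe sets, all sphere arrays lay on one side of the adherent arrays and all xenograft arrays on the other, and the difference between xenografts and spheres passed the limma threshold. How many of all genes meet this rule was not counted, so the 5 have no share to stand beside. The same values picked these genes and gave the adjusted p-values below, which only describe them. COL15A1 was 1.00 higher in spheres and 3.33 lower in xenografts than in adherent cells, a difference of -4.33 (adjusted p = 6.63e-07). COL6A1 was 1.72 higher and 0.64 lower, a difference of -2.36 (adjusted p = 1.33e-08). COL1A2 was 0.58 lower and 1.30 higher, a difference of 1.88 (adjusted p = 1.11e-05). COL5A3 was 0.18 lower in spheres, which did not pass, and 0.50 higher in xenografts, a difference of 0.68 (adjusted p = 0.000167). The dim COL19A1 differed by -0.18 in spheres and 0.19 in xenografts, neither past the threshold, and by 0.37 between them (adjusted p = 0.00757). The part of each difference that comes from the shared adherent arrays drops out of the comparison of xenografts with spheres.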

How the results depend on the processing

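Replicate numbers did not pair the arrays: the deviations of same-numbered arrays from their group means correlated between -0.177 and 0.183, over 0.1 in 2 of 9 pairs, and 2 of 9 arrays correlated best with an array of their own number. With a replicate block, 4 collagen genes were higher and 7 lower in spheres against adherent cells, 7 and 13 in xenografts against adherent cells, and 13 and 11 in xenografts against spheres, with the medians unchanged at -0.06, 0.16 and 0.16.

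Leaving out 1 array at a time gave 3 to 6 genes higher and 5 to 9 lower in spheres against adherent cells (median -0.10 to -0.06), 3 to 8 higher and 12 to 14 lower in xenografts against adherent cells (median 0.13 to 0.18), and 7 to 12 higher and 10 to 12 lower in xenografts against spheres (median 0.11 to 0.16). The 5 genes higher in spheres became 3 without adherent replicate 3, sphere replicate 2 or sphere replicate 3. The 8 higher in xenografts than in adherent cells became 3 without adherent replicate 2 or 3 and 5 without xenograft replicate 2, and the 13 higher in xenografts than in spheres became 7 without sphere replicate 2.

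Scaling moved the balance of all genes in xenografts against adherent cells from 2500 higher and 2829 lower to 3015 and 2111 under quantile normalization and 1836 and 3252 under median centring, whereas the collagen counts went from 8 and 13 to 7 and 14 and to 6 and 13. With brighter probe sets only, 5 genes were higher in xenografts than in adherent cells (median -0.47) and 6 higher than in spheres (median -0.20). Array weights gave 11 genes lower in spheres than in adherent cells and the methods' t-test without adjustment 12. After adjustment that test gave 3 genes higher in xenografts than in adherent cells, 6 higher than in spheres and 7 lower than in spheres. A 2-fold minimum left 1 higher and 2 lower in spheres against adherent cells, 1 and 7 in xenografts against adherent cells, and 2 and 6 in xenografts against spheres.

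The choice of probe set changed the sign of single genes, for some only to a value near 0 that did not pass. With the mean of all probe sets, 8 genes were higher in spheres than in adherent cells. COL1A1 was then -0.36 in xenografts against adherent cells (adjusted p = 0.0122) and -0.68 against spheres (0.000118). COL7A1, not called at its brightest probe set, was 0.24 in xenografts against spheres (0.0459), and COL6A1 was 0.0012 in xenografts against adherent cells (0.992). With probe sets that carry no suffix for shared sequence, 2 genes were higher in xenografts than in adherent cells. In these sets COL6A1 was -0.22 (adjusted p = 0.212) and COL6A5 -0.38 (0.0389) in spheres against adherent cells. In xenografts against adherent cells COL3A1 was -0.022 (0.931), COL4A5 0.29 (0.0484) and COL6A1 0.043 (0.815). Against spheres COL11A2 was -0.012 (0.94), COL4A5 0.41 (0.00581) and COL6A1 0.26 (0.0906) in xenografts. The probe sets used here for COL3A1, COL4A5, COL6A1 and COL6A5 were dim, with means of 3.96, 3.18, 4.08 and 2.20 over the 9 arrays. That of COL11A2 was brighter, at 6.06. The cause was not tested, apart from the fewer probe sets in these alternatives.

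Over all settings, genes past the threshold kept direction and call in 988 of 1177 values, lost the call in 180 and changed sign in 9, whether or not the new value passed. Among the 180 are values that stayed past the threshold and only fell short of the 2-fold minimum. These were 8 in spheres against adherent cells, 13 in xenografts against adherent cells and 17 in xenografts against spheres. Only 3 arrays a group, 1 cell line and the background of dim probe sets limit what can be seen.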
